A study of Drosophila melanogaster with 12 samples.

Results

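The 68 genes described here encode proteins of the cytosolic ribosome of *Drosophila melanogaster*, 25 of the small subunit and 43 of the large subunit, out of 17592 gene symbols named in all 6 leg libraries. A symbol was taken when it was made of RpL or RpS, an optional P, digits and an optional capital A. *RpL22*, symbols ending in a lower-case letter, which mark copies of a gene, and symbols ending in -like were left out. The rule used names only and no measured value. All 68 symbols were found in every library and matched the FlyBase identifiers and the RefSeq gene table of Release 6.

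The ribosome translates every mRNA of the cell, and each of its subunits is built on ribosomal RNA with 1 copy of nearly every ribosomal protein. The genes are among the most strongly transcribed of any animal, their mRNAs begin with a run of pyrimidines that couples their translation to nutrient signalling, and many of their introns carry small nucleolar RNAs (snoRNAs), which guide the modification of ribosomal RNA. In flies the loss of 1 copy of many of these genes gives the Minute phenotype, a slow development with short and thin bristles. The pupal age studied is one at which leg bristles grow and trichomes, the actin-based hairs of the cuticle, are laid out.

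Second (T2) legs were taken from pupae 20 to 28 h after puparium formation, at 25 °C, in 2 strains. The strain eworo carries the mutations *ebony*[4], *white ocelli*[1] and *rough*[1] and has a large naked valley, a patch of femur without trichomes. Oregon R (OreR) has a small naked valley. There were 3 RNA-Seq libraries and 3 ATAC-Seq samples per strain, each from pooled legs, about 80 by the series text and from about 80 pupae by the study's methods, so the spread between libraries is that between pools. The strains differ in the 3 marker mutations and in their background, and these cannot be told apart. A pool holds every cell type of the leg, and more cells of a type or more mRNA per cell cannot be told apart either.

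RNA is given in FPKM, fragment counts corrected for transcript length and library size, as deposited for each library by Cufflinks. Values of a gene are listed in the order of replicates 1 to 3. A library held 16142 to 16425 entries, and read totals are not given in the sources used here. Eworo replicate 2 stood apart from the other libraries of its strain in the genes described here, and results that rest on it are given with and without it. An FPKM is a share of its library, so a rise of very abundant transcripts lowers the values of all others. Unnamed entries of 144655 and 294826 FPKM in OreR replicates 1 and 2 enlarged the sums of those libraries. Of the 5 leg markers, *Dll*, *dac* and *Egfr* had means of 103, 99.9 and 83.9 FPKM, whereas *hth* and *ap* were at 4.47 and 8.07 FPKM. Of the markers for other cells, the 3 germ line genes were at or below 0.268 FPKM, and markers of muscle, haemocytes, neurons and fat body had means of up to 73.5, 110, 45.9 and 206 FPKM.

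Ribosomal protein genes took 29.0% to 33.3% of the FPKM of named entries in the legs. Their entries held 33.3%, 30.0% and 33.1% of the summed FPKM of named entries in eworo replicates 1 to 3, and 32.2%, 32.6% and 29.0% in OreR replicates 1 to 3. The libraries of the strains overlapped in this share. With unnamed entries in the sum the shares were 32.9%, 29.8% and 32.8% in eworo and 26.9%, 23.5% and 28.6% in OreR, and the strains did not overlap. The lower values in OreR replicates 1 and 2 went with their large unnamed entries.

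No ribosomal protein gene was low in any library. The lowest of the 408 values was 1114 FPKM (*RpL35A*, OreR replicate 3) and the highest 18518 FPKM (*RpL41*, eworo replicate 3), and none was listed at 0. The mean over 6 libraries had a median of 3389 FPKM over the 68 genes, with quartiles of 2776 and 4259 FPKM, and 65 of the 68 means lay within 2-fold of that median. The medians of the subunits were close, at 3573 FPKM for the small and 3191 FPKM for the large one. FPKM are per length, and on that basis these levels are set against each other between genes. The comparison is limited, because some entries cover other genes too and very short transcripts depend strongly on the length correction. Within a library the coefficient of variation among small subunit genes was 25.2% to 31.7%. Among large subunit genes it was 54.8% to 74.8%, and over both subunits it fell to 27.2% to 34.9% once *RpL39* and *RpL41* were left out. The order of the genes was nearly the same in each library (Spearman's rho over the 68 genes of 0.888 to 0.965 between pairs of libraries, where pairs within and between strains shared most of this range). Genes are not independent replicates, and all values of a library share its depth and processing.

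**Figure D1:**
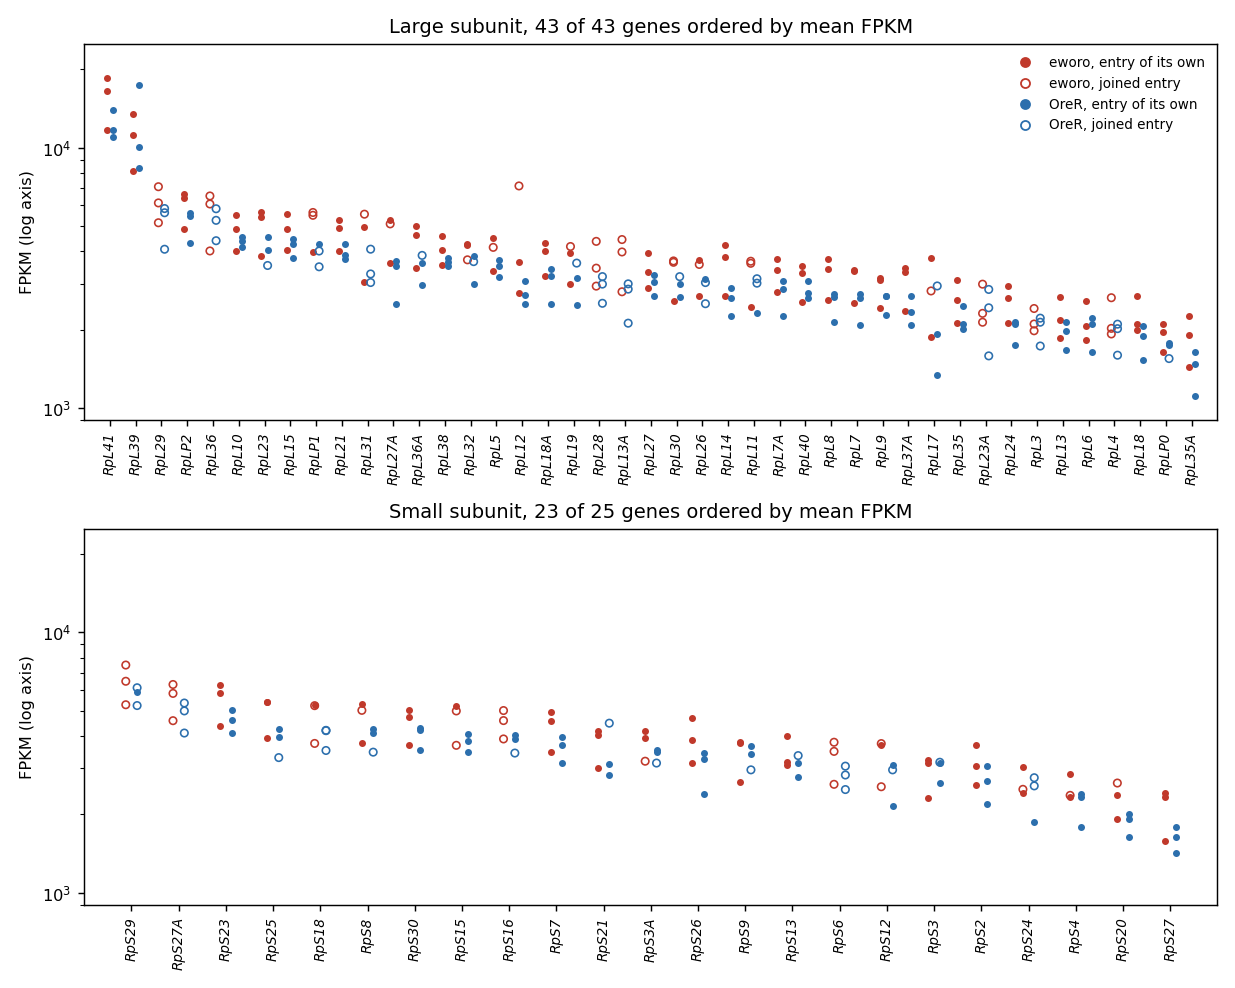
FPKM (log axis) of the 43 large subunit genes (top) and 23 of the 25 small subunit genes (bottom) in each of the 3 eworo (red) and 3 OreR (blue) libraries, ordered by mean. Open circles are values of an entry that Cufflinks joined with another gene; *RpL41* and *RpL39* stand above all others in all 6 libraries, and the open circle far above the other *RpL12* values is the entry joined with *eIF-5A*.

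The highest genes encode very short proteins. *RpL41* encodes a basic peptide at the interface of the subunits, and lies on 2R from 24903416 to 24903935 over 520 bp, the shortest span of the 68. It had eworo values of 16561, 11714 and 18518 FPKM and OreR values of 11689.6, 13896 and 11020 FPKM. *RpL39*, whose small protein lines the exit tunnel of the large subunit, lies on 2R from 24061853 to 24062431 over 579 bp and had eworo values of 11162, 8118 and 13414 FPKM and OreR values of 17460.5, 10014 and 8335 FPKM. The value in OreR replicate 1 was the highest of the 6 and went against the rest of the genes in that library. The ratio of *RpL41* to *RpL39* was 1.32 to 1.48 in 5 libraries and 0.669 in OreR replicate 1. Across the 68 genes mean log2 FPKM decreased with the log of gene span (Pearson's r of -0.43 and Spearman's rho of -0.32, as a description), and without *RpL39* and *RpL41* r was -0.26. FPKM of very short transcripts depend strongly on the length correction, and the part of this in their levels was not tested.

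At the low end of the large subunit was *RpL35A*, with eworo values of 2257, 1432 and 1914 FPKM and OreR values of 1477, 1638 and 1114 FPKM. Eworo replicate 2 lay between OreR replicates 1 and 3 here. *RpL18* had eworo values of 2689, 1992 and 2109 FPKM and OreR values of 1887, 2059 and 1526 FPKM. *RpL6* had eworo values of 2572, 1824 and 2071 FPKM and OreR values of 2099, 2222 and 1637 FPKM. In all 3 genes OreR replicate 3 was the lowest library and eworo replicate 1 the highest. *RpLP0*, joined with *CR43995* in OreR replicate 3, was lower on average than *RpL18*.

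Only 6 small subunit genes had an entry of their own throughout, and all of them are given here. Among them *RpS23*, whose protein sits in the decoding centre, was the highest. It had eworo values of 5862, 4365 and 6282 FPKM and OreR values of 4615, 5036 and 4108 FPKM. *RpS30*, made in mammals as a fusion with a ubiquitin-like protein, had eworo values of 5013, 3685 and 4739.7 FPKM and OreR values of 4229.9, 4274 and 3539 FPKM. *RpS7* had eworo values of 4953, 3483 and 4550.0 FPKM and OreR values of 3686, 3962 and 3150.2 FPKM. In each of these genes eworo replicate 2 lay inside the range of OreR. *RpS29* was higher than all of them, with 5233 to 7486 FPKM, but in entries that were joined with *CG12947* in 5 libraries. The lowest was *RpS27*, which encodes a zinc finger protein of the small subunit, with eworo values of 2321, 1584 and 2414 FPKM and OreR values of 1636, 1793 and 1422 FPKM. *RpS2* had eworo values of 3678, 2596 and 3079 FPKM and OreR values of 2686, 3053 and 2199 FPKM. *RpS26*, whose protein contacts mRNA at the exit channel, had eworo values of 4677, 3136 and 3866 FPKM and OreR values of 3273, 3452 and 2385 FPKM. *RpS2* and *RpS26*, with means of 2882 and 3465 FPKM, were not among the lowest of the whole subunit. *RpS20*, *RpS4* and *RpS24*, each joined in at least 1 library, had lower means of 2079, 2347 and 2527 FPKM.

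The genes of the ribosomal stalk, like the 68 genes as a whole, varied little in their proportions. The stalk of the large subunit, which recruits elongation factors, is built from *RpLP0* as its base and dimers of *RpLP1* and *RpLP2*. *RpLP0* had eworo values of 2102, 1641 and 1960.1 FPKM and OreR values of 1772, 1751 and 1549 FPKM. *RpLP1* had eworo values of 5498, 3961 and 5637 FPKM and OreR values of 4009, 4281 and 3488 FPKM. *RpLP2* had eworo values of 6650.3, 4872 and 6396 FPKM and OreR values of 5603, 5463 and 4287 FPKM. Within a library *RpLP1* exceeded *RpLP0* by 2.25- to 2.88-fold and *RpLP2* exceeded it by 2.77- to 3.26-fold. The ratio of *RpLP2* to *RpLP1* was 1.13 to 1.40. *RpLP1* was joined with *ebi* or with *BBS8* and *CG13692* in 4 libraries, and its value in its own entry, in eworo replicate 2 and OreR replicate 2, was 2.41 and 2.45 times that of *RpLP0*.

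*RpS27A* and *RpL40* encode fusions of ubiquitin with a ribosomal protein and so supply the cell with ubiquitin too. *RpS27A*, joined with *Ip259* in all libraries, had eworo values of 5826, 4578 and 6304 FPKM and OreR values of 4991, 5351 and 4104 FPKM. *RpL40* had eworo values of 3499.7, 2552 and 3312 FPKM and OreR values of 2757, 3083 and 2645 FPKM. Their ratio was 1.55 to 1.90. *RpS6*, the target of the S6 kinase, had eworo values of 3783, 2608 and 3489 FPKM and OreR values of 2832, 3063 and 2490.2 FPKM, in an entry that also held a snoRNA and the loci *CR11386* and *CR33222* in all 6 libraries.

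Genes of classical Minute loci were spread through the middle of the range. *RpS3* had eworo values of 3235, 2304 and 3140.5 FPKM and OreR values of 3159.7, 3169.9 and 2649 FPKM. *RpS13* had eworo values of 4007, 3099.6 and 3182 FPKM and OreR values of 3147, 3362 and 2773 FPKM. The 2 lower eworo libraries of *RpS13* lay inside the OreR range. *RpL9* had eworo values of 3149, 2416 and 3113 FPKM and OreR values of 2690.3, 2689.9 and 2286 FPKM. *RpL14* had eworo values of 3802, 2692 and 4237 FPKM and OreR values of 2643, 2899 and 2256 FPKM. *RpL19* had eworo values of 4172, 3008 and 3949 FPKM and OreR values of 3603, 3156 and 2492 FPKM. In these 3 genes OreR replicate 3 was the lowest library. *RpL38* had eworo values of 4044, 3547 and 4579 FPKM and OreR values of 3509.6, 3630.3 and 3786 FPKM, and here OreR replicate 3 was the highest of the OreR libraries, the reverse of the usual order. Of the 68 genes 17 lie on 2L, 17 on 2R, 13 on 3L, 15 on 3R, 5 on X and 1, *RpS3A*, on chromosome 4, and the medians of the mean levels by chromosome, from 3021 FPKM on X to 4143 FPKM on 2R, differed little beside the spread within each.

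Many values came from joined entries. Cufflinks assembled each library by itself and reported overlapping genes as a single entry, whose FPKM covers all of them. Of the 408 values, 122 came from such entries. A total of 28 genes had an entry of their own in all 6 libraries, 9 were joined in all 6 (*RpL3*, *RpL4*, *RpL13A*, *RpL23A*, *RpL28*, *RpL29*, *RpL36*, *RpS6* and *RpS27A*) and 31 were joined in some libraries only. The partner was a snoRNA or its host transcript for 18 genes, and 31 genes had a partner of another kind in at least 1 library. In the 31 genes seen both ways, the joined value, measured from the common pattern of the library, exceeded the value alone by a median of 0.08 on the log2 scale (range -0.18 to 1.01), and it was the higher one in 22 genes. Of the 31 differences 16 were within 0.1.

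The large exception was *RpL12*, whose protein binds the base of the stalk. It had eworo values of 3632, 2762 and 7128 FPKM and OreR values of 2725, 3083 and 2508 FPKM. In eworo replicate 3 its entry was joined with *eIF-5A*, a translation factor that had 3473 and 3113 FPKM in the other eworo libraries, and the joined value lay 0.84 above the pattern of that library. *RpL12* lies on 2R from 24060378 to 24061860 and *RpL39* from 24061853 to 24062431. Their spans overlap, so the values of these genes are uncertain. The value of *RpL39* in OreR replicate 1, 0.72 above the pattern, was the only other one over 0.5 from it. *RpL17* had eworo values of 3777, 1877 and 2817 FPKM and OreR values of 1922, 2944 and 1341 FPKM, a range of 2.01-fold and 2.2-fold within the strains. It was joined with a tRNA gene in eworo replicate 3 and OreR replicate 2. *RpL12*, *RpL17* and *RpL39* were the genes with more than a 2-fold range within a strain. The 41 genes whose libraries are not all given here had values between 1587 and 7486 FPKM.

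The limits that Cufflinks gives for each value were narrow and nearly equal at all levels. Their half-width had a median over the genes of 4.15% of the FPKM in the narrowest and 4.20% in the widest library, and it was 5% or less in every library for 61 of the 68. They exceeded 100% of the value in a library for 3 genes, *RpL29*, *RpL36* and *RpL36A*. The coefficient of variation between libraries of a strain was larger, with medians of 17.5% in eworo and 12.4% in OreR, so the spread between libraries, not these limits, is used as the error below.

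The 68 genes moved together from library to library. Measured as log2 deviation of each gene from its own mean over the 6 libraries, the median gene was at 0.29, -0.16 and 0.24 in eworo replicates 1 to 3 and at -0.06, 0.02 and -0.33 in OreR replicates 1 to 3. In eworo replicate 1 all 68 genes were above their own mean, and in OreR replicate 3 all 68 were below it. Eworo replicate 1 or 3 was the highest library for 66 genes, and OreR replicate 3 the lowest for 60. Removing the median of each library lowered the median SD of a gene over libraries from 0.24 to 0.09 and took away 76.7% of the squared deviations, so most of the spread of a single gene was shared by all of them. The small subunit (0.28, -0.18, 0.22, -0.05, 0.02 and -0.30) and the large subunit (0.31, -0.15, 0.26, -0.06, 0.02 and -0.35) had the same course over the 6 libraries.

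**Figure D2:**
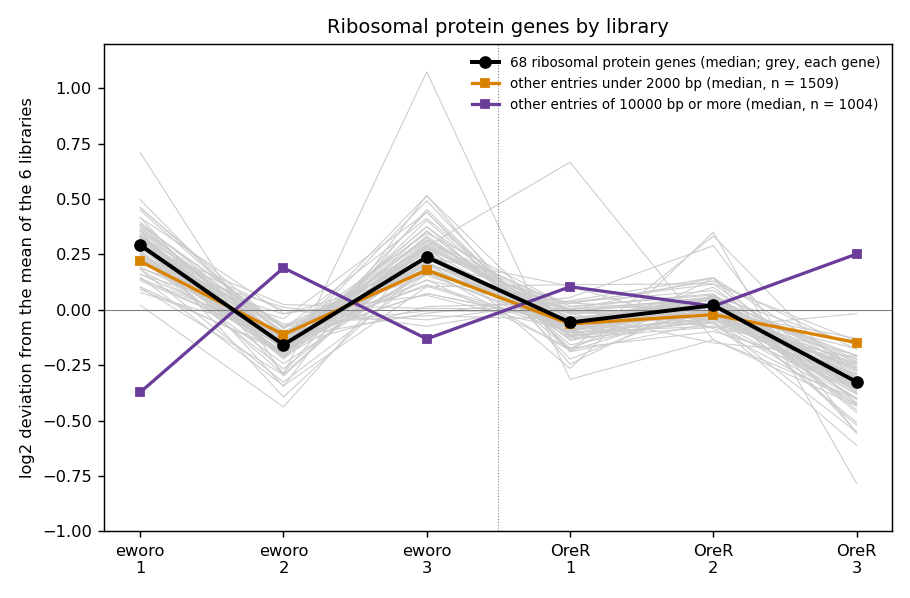
log2 deviation from the mean of the 6 libraries (vertical axis) in each library (horizontal axis) for 68 ribosomal protein genes (grey lines) and their median (black), with the medians of 1509 other entries under 2000 bp (orange) and 1004 other entries of 10000 bp or more (violet). The ribosomal protein genes are high in eworo replicates 1 and 3 and low in OreR replicate 3, the short entries follow the same course at a smaller size, and the long entries run opposite.

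Eworo replicate 2 was the library closest to the other strain. It lay within the range of the OreR libraries for 60 of the 68 genes, below all of them for 7 and above all of them for 1. Both other eworo replicates were above all 4 remaining libraries for 57 genes. The labels give no batch that separates these libraries.

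The comparison of the strains asked whether the legs differ in their ribosomal protein mRNA. No gene passed the test. In the deposited FPKM the mean of the 3 libraries was higher in eworo for 66 of the 68 genes, with *RpL39* and *RpS3* as exceptions. With libraries scaled to the same summed FPKM, the fitted difference was higher in eworo for 18 of the 30 compared. That sum includes the 30 genes themselves. In the deposited FPKM the median ratio of the means was 1.19 (range 0.913 to 1.63). For 1 gene the libraries of the strains did not overlap. In comparison, 21.3% of the 9555 genes above 1 FPKM did not overlap between strains. In the authors' own FPKM per strain, given for 56 of these genes as entries of their own, 55 were higher in eworo and the median ratio was 1.21 (0.968 to 1.38).

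The fit was made with limma on log2(scaled FPKM + 1) over all entries named alike in all 6 libraries and above 1 FPKM, with p adjusted by the Benjamini-Hochberg method and called under 0.05. Of 4848 entries 84 were called higher and 44 lower in eworo, or 2.64% in all and 1.73% higher. Of these entries 30 hold a ribosomal protein gene, 28 of them alone. None was called in limma, 0 had an unadjusted p under 0.05 where 15.3% of all entries did, and the fitted difference was higher in eworo for 29 of the 30 with a median of 0.25, where 48.6% of all entries were higher with a median of -0.01. Libraries were also scaled to the same summed FPKM of the entries named alike in all 6, a sum without the large unnamed entries of OreR. The 30 entries are part of this sum, so a difference shared by them is partly divided out. In that scaling 18 of the 30 were higher and their median was 0.02, beside a median of -0.23 for all entries. The median of the ribosomal protein genes was 0.27 above that of all entries in the first scaling and 0.25 above it in the second. A scaling shifts all entries of a library by nearly the same amount, so this gap could hardly change between the scalings.

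When every gene took the FPKM of its entry, joined or not, all 68 could be fitted beside 9487 other genes. The counts stayed at 0 called of 68 in limma, where 1.86% of the 9555 genes were called (1.13% as higher in eworo), and at 0 with an unadjusted p under 0.05, where 11.2% of all genes were. The differences ran from -0.10 to 0.58 with a median of 0.23, 66 of the 68 were above 0 where 49.6% of all genes were, and the median standard error was 0.17. The medians were 0.23 for the 25 small subunit genes and 0.23 for the 43 large subunit genes. By chromosome the medians were 0.22 on 2L, 0.24 on 2R, 0.20 on 3L, 0.21 on 3R and 0.22 on X.

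**Figure D3:**
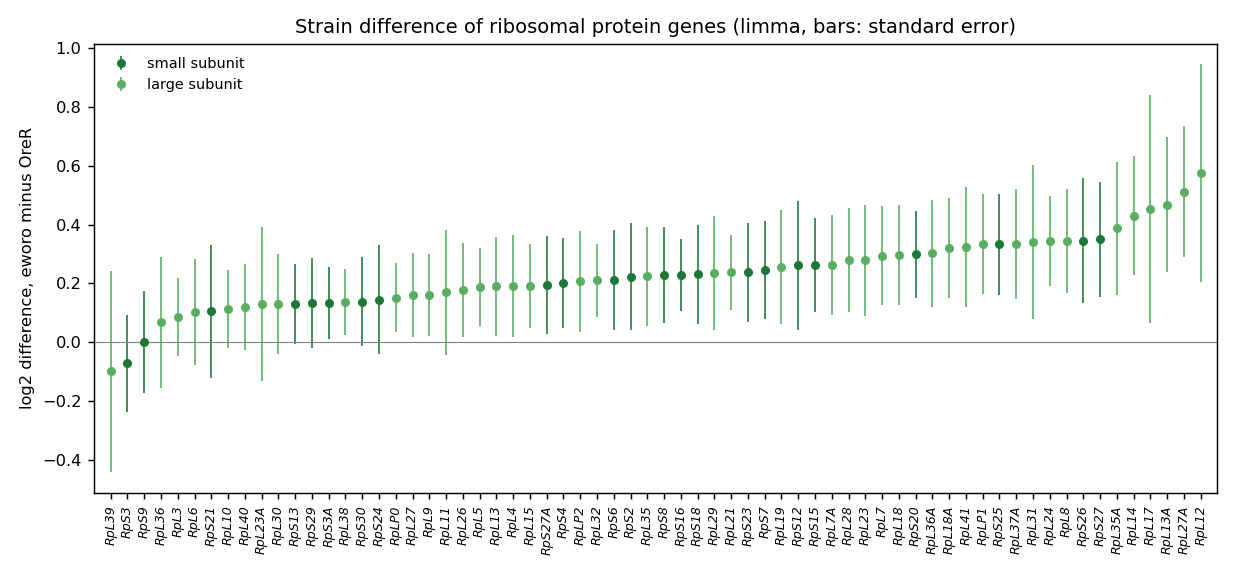
log2 difference of 66 of the 68 genes (eworo minus OreR, limma fit in which every gene takes the FPKM of its entry; bars, standard error; n = 3 libraries per strain), ordered by size. Dark green marks the small and light green the large subunit. Of the 66 drawn 64 lie above 0 and none was called. With libraries scaled to the same summed FPKM, a sum that includes these genes, 18 of the 30 compared there lay above 0.

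The most positive differences among the 30 entries belonged to *RpL13A* (0.48 ± 0.23 SE, adjusted p = 0.370 in limma), *RpL14* (0.45 ± 0.21, 0.356), *RpL35A* (0.40 ± 0.23, 0.429), *RpS27* (0.37 ± 0.20, 0.413) and *RpS26* (0.36 ± 0.21, 0.448). *RpL13A*, joined with a snoRNA of its intron in all libraries, had eworo values of 3976, 2797 and 4437 FPKM and OreR values of 2862, 2999 and 2118 FPKM. At the other end were *RpL39* (-0.08 ± 0.34, adjusted p = 0.908 in limma), *RpL6* (0.12 ± 0.18, 0.728), *RpL10* (0.13 ± 0.14, 0.628), *RpL40* (0.14 ± 0.15, 0.634) and *RpL38* (0.15 ± 0.12, 0.540). *RpL10*, whose protein in yeast completes the peptidyl transferase region late in assembly, had eworo values of 4851, 4005 and 5522 FPKM and OreR values of 4390.2, 4523 and 4162 FPKM. In each of these 10 genes the libraries of the strains overlapped. *RpL39* turned to 0.22 without OreR replicate 1 and to 0.11 without eworo replicate 2. *RpL6* turned to -0.01 without eworo replicate 1 and to -0.03 without OreR replicate 3, and with libraries scaled to the same sum *RpL6*, *RpL10*, *RpL38* and *RpL40* lay between -0.12 and -0.09.

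Among the genes outside the 30 entries, *RpL12* had the highest value of all 68 (0.58 ± 0.37 SE, adjusted p = 0.558 in limma), and without eworo replicate 3, which holds the joined entry, it was at 0.19. *RpL27A* followed with 0.51 ± 0.22 (0.453 in limma) and *RpL17* was at 0.45 ± 0.39 (0.614). *RpLP0* and *RpLP1* were at 0.15 ± 0.12 and 0.33 ± 0.17, and *RpLP2* lay between them at 0.21 ± 0.17. *RpS6* (0.21 ± 0.17), *RpS27A* (0.19 ± 0.17) and *RpL19* (0.26 ± 0.19) lay between the quartiles of the 68 (0.15 and 0.32), and *RpS13* (0.13 ± 0.14) lay below the lower one. *RpS3* was at -0.07 ± 0.16 and *RpS9* at 0.00 ± 0.17, and *RpS3* turned to 0.08 without eworo replicate 2.

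Which libraries entered the fit set the size of the difference. Without eworo replicate 2 the median of the 30 entries was 0.39, all 30 were higher in eworo, and 12 had an unadjusted p under 0.05, where 27.0% of all entries did. In the fit of all 68 genes without that library 27 had such a p, where 20.3% of all genes did, and 0 were called in limma. Without OreR replicate 3 the median of the 30 entries was 0.17, and without any other library it was 0.19 to 0.33.

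The difference between the strains varied with span across the other entries. For entries without a ribosomal protein gene the median difference was 0.23 at spans under 1000 bp, 0.17 at 1000 to 1500 bp, 0.12 at 1500 to 2000 bp, 0.00 at 2000 to 5000 bp, -0.15 at 5000 to 10000 bp and -0.24 above that. Ribosomal protein genes are short, from 520 bp to 4606 bp (*RpL5*) with a median of 1404 bp, and 55 of the 68 span less than 2000 bp. By the span of the whole entry, joined genes included, the medians of the ribosomal protein entries were 0.19 (6 entries), 0.31 (17 entries), 0.36 (3 entries) and 0.26 (3 entries) in the first 4 classes. The remaining entry, in which *RpL4* is joined with *mino* over 10257 bp, was at 0.21 in the class whose other entries had a median of -0.24. The 1509 other entries under 2000 bp, of which 1078 were higher in eworo, 45 were called higher and 15 lower in limma, had a median of 0.18 and the course of the ribosomal protein genes over the libraries (0.22, -0.11, 0.18, -0.06, -0.02 and -0.15), and the 1004 others of 10000 bp or more had the opposite course (-0.37, 0.19, -0.13, 0.10, 0.02 and 0.25).

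**Figure D4:**
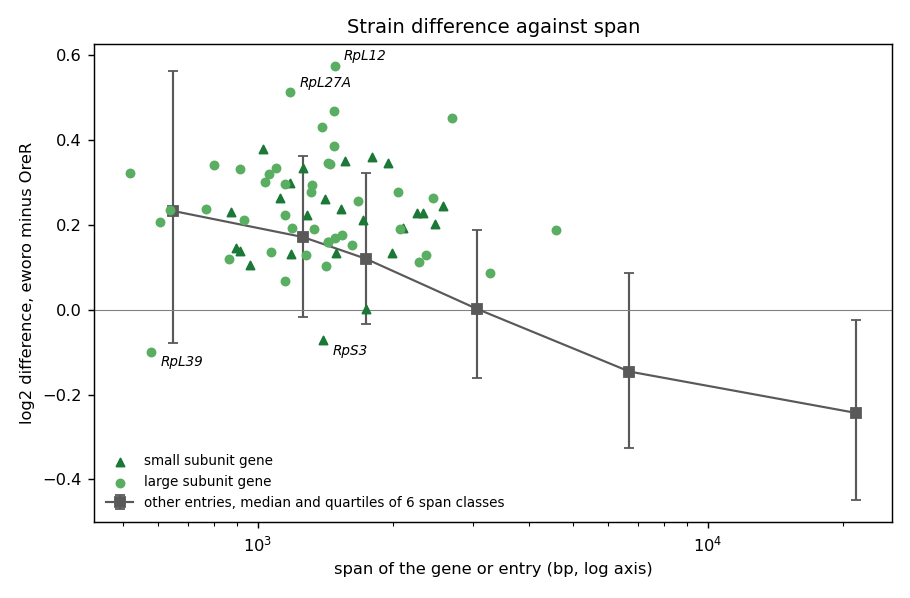
log2 difference between strains (eworo minus OreR, limma) against span in bp (log axis) for 25 small subunit genes (triangles) and 43 large subunit genes (circles), with the median and quartiles of 6 span classes of other entries (squares). Triangles and circles use the RefSeq span of the gene and the fit in which every gene takes the FPKM of its entry. Squares use the span of the whole entry and the fit of entries named alike. The class medians fall from 0.23 to -0.24, while the 68 ribosomal protein genes have a median of 0.23. With libraries scaled to the same summed FPKM the medians of the 30 genes compared there and of all entries were 0.02 and -0.23. That sum includes the 30 genes.

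Within the ribosomal protein genes the relation with span differed between the fits. The correlation of the difference with the log of gene span was 0.01 (Pearson's r) and -0.03 (Spearman's rho) over 68 genes, and 0.26 and 0.27 over the 30 entries named alike, as a description. In the fit of all 68 the medians were 0.23 in the 23 shortest genes (520 to 1176 bp), 0.24 in the next 22 and 0.21 in the 23 longest (1532 to 4606 bp). When the trend of each library with span was removed before the fit, the median of the 30 entries fell to 0.11 with 24 of 30 higher in eworo, and that of all 68 genes to 0.15 with 58 of 68 higher. This trend used the span of the whole entry, which is longer than the gene where genes are joined. By that span 12 of the 68 genes were at 5000 to 10000 bp and 2 above it. Other genes of these classes had medians of -0.08 and -0.18 before the removal. No ribosomal protein gene was called in limma in either fit, where 2.83% of all 4848 entries and 2.01% of all 9555 genes were. In each fit 1 had an unadjusted p under 0.05, against 16.8% of the entries and 11.7% of the genes. Other entries that were both under 2000 bp and at a mean log2 value of 9 or more, 25 in number, had a median of 0.33 and the same course over libraries as the ribosomal protein genes (0.30, -0.13, 0.29, -0.15, 0.01 and -0.34). Whether the ribosomal protein genes differ from such entries was not tested. Span, level and the library are linked here, and their parts in the difference cannot be told apart.

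Other genes of protein synthesis were compared as lists. The mitochondrial ribosomal proteins, which form a separate ribosome, had 36 entries with a median difference of 0.17, of which 0 were called in limma and 30 were higher in eworo, and their course over libraries was similar (0.33, -0.15, 0.13, -0.07, -0.04 and -0.17). Of the 2 cytosolic ribosome components with other names, *sta*, the small subunit protein SA, had eworo values of 3272, 2323 and 2923 FPKM and OreR values of 2718, 2991 and 2369 FPKM. *Rack1*, a scaffold on the small subunit, had eworo values of 2572, 1909 and 2343 FPKM and OreR values of 2065, 2190.1 and 1826 FPKM (0.16, adjusted p = 0.565 in limma). Both showed the low value of eworo replicate 2.

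As lists, the factors of translation had smaller median differences, and whether they differ from the ribosomal protein genes was not tested. Of 3 elongation and termination factors compared, 0 were called in limma and the median was 0.04. With every gene taking the FPKM of its entry, all 8 of the list were fitted and 5 were higher in eworo. Their median was then 0.10, beside 0.23 for the 68 ribosomal protein genes, and their differences ran from -2.66 to 0.61. *Ef1alpha48D*, which brings aminoacyl-tRNA to the ribosome and was as abundant as the ribosomal proteins, had eworo values of 4097, 3947 and 3783 FPKM and OreR values of 4172, 4791 and 4213 FPKM. *EF2*, the translocase, had eworo values of 2414, 1803 and 1761 FPKM and OreR values of 1849, 1761 and 1582 FPKM. *Ef1beta*, a subunit of the exchange factor of the former, had eworo values of 1678, 1009 and 1593 FPKM and OreR values of 1001, 983 and 755 FPKM, in entries that did not all have the same name. The strains overlapped for *EF2*. For *Ef1beta* each eworo library lay above each OreR library (0.61, adjusted p = 0.444 in limma with every gene taking its entry), while for *Ef1alpha48D* each OreR library lay above each eworo library in the entries that hold it (-0.17, adjusted p = 0.499 in the same fit). Of 11 initiation factors 0 were called in limma, 7 were higher in eworo and the median was 0.03. *eIF-4a*, the helicase of initiation, had eworo values of 2327, 1939 and 2382 FPKM and OreR values of 2014, 1984 and 1704 FPKM (0.22, adjusted p = 0.424 in limma).

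Genes that build ribosomes or regulate these genes had far lower levels. The 14 genes of ribosome assembly had means of 13.3 to 221 FPKM, and of the 8 compared 0 were called in limma with a median of -0.09. Of 14 regulators 13 had a mean above 1 FPKM, and of the 8 compared 0 were called with a median of -0.22 at a median span of 8690 bp. *M1BP*, a factor that binds promoters of ribosomal protein genes, had eworo values of 50.0, 36.8 and 39.1 FPKM and OreR values of 41.0, 40.2 and 37.4 FPKM. *crc*, the fly homologue of ATF4, was the highest of the list with eworo values of 723, 712 and 853 FPKM and OreR values of 698, 739.8 and 693 FPKM (0.10, adjusted p = 0.595 in limma). The gene not above 1 FPKM, *Dref*, named after its values were seen, was listed at 0 in all 6 libraries, as can happen with a failed estimate.

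Markers of cell types varied between libraries beside these genes. The summed FPKM of the 5 leg markers, genes of long span, was 205 to 340 in eworo and 298 to 381 in OreR. All 5 had negative fitted differences (median -0.28, and between -0.73 and -0.24 with scaling to the same sum). The sum of 3 fat body markers was 163 to 349 and 238 to 302. Most of it came from *Lsp2*, at -0.49, whereas *Lsp1alpha* and *Fbp1* were at 1.21 and 1.10 (1.01 and 0.87 with scaling to the same sum), and eworo replicate 3 had the highest value of both. The sum of 4 muscle markers was 81.9 to 185 and 142 to 203, and in the fit of all genes all 4 had negative differences, from -1.51 to -0.13. The 3 neuron markers summed to 49.3 to 63.2 and 46.1 to 58.2, and the 4 haemocyte markers to 83.7 to 204 and 93.7 to 540. None of these genes was called in the entries compared, and their part in the differences of the ribosomal protein genes was not tested.

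ATAC-Seq, which marks DNA open to the Tn5 transposase, gave another readout of the same genes. The authors called peaks on the pooled samples of a strain, 44398 in eworo and 42015 in OreR, so that the lists have no replicates and no test was made. The gene table used has no strand, and a peak was counted when it came within 250 bp of either end of a gene. All 68 ribosomal protein genes had such a peak in eworo and 67 in OreR. Of the 7597 protein-coding genes above 1 FPKM, 85.3% had one in eworo and 84.3% in OreR. Of the 2759 among them that span less than 2000 bp, 79.7% and 78.2% had one, and of 166 other genes with a mean above 500 FPKM 86.1% and 86.7% did. The exception was *RpS24*, which had its tallest peak at a pileup of 58 in eworo, the lowest of the 68, and none in OreR within 250 bp.

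The peaks at ribosomal protein genes were of ordinary height. The pileup, the number of tags over the summit, had a median of 76 in both strains for the tallest peak of a gene, with a range of 58 to 85 in eworo and 59 to 85 in OreR, beside a median of 73 in both strains for the genes above 1 FPKM with a peak. No peak of either list exceeds a pileup of 100. *RpL41* had 85 in eworo and 83 in OreR, while *RpL39*, next to it in expression, had 64 and 59. *RpL30* and *RpS4* were at 85 in eworo and 82 and 84 in OreR, and *RpL30* reached no more than 3673 FPKM in any library. The summit lay a median of 45.5 bp from the nearest gene end in eworo and 46 bp in OreR. Of 67 genes with a peak in both strains, 28 had the taller one in eworo, 36 in OreR and 3 were equal. With peaks of a fold enrichment of at least 3 over the local background only, 28 genes remained in eworo (41.2%, against 28.3% of genes above 1 FPKM) and 15 in OreR (22.1%, against 13.8%).

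**Figure D5:**
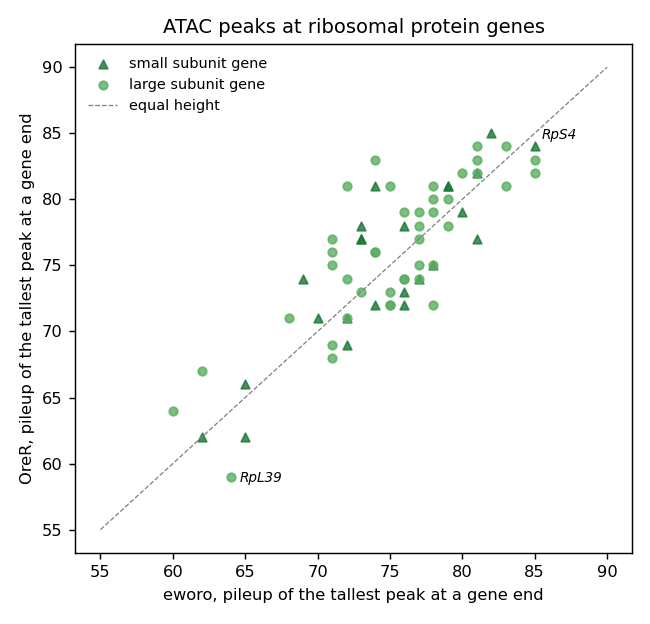
Pileup of the tallest ATAC peak within 250 bp of either end of a gene, eworo (horizontal) against OreR (vertical), for the 67 ribosomal protein genes with a peak in both strains (triangles, small subunit; circles, large subunit; dashed line, equal height). The points lie along the line between 59 and 85, with 28 below it, 36 above it and 3 on it.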

How the data were processed

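The authors aligned stranded paired-end reads with TopHat2 (2.1.1 in the submitters' processing notes) and deposited FPKM per gene and library from Cufflinks (2.2.1), with confidence limits and without scaling between libraries, on Release 6 of the genome. Their strain comparison, which holds fold changes, p-values and q-values, was not used apart from its FPKM per strain. The deposited MACS2 peak lists, called on pooled reads with no control, give the pileup (signal) at the summit, its fold (ratio) over the local background and the −log10 of q, which was not used here.

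An entry entered the comparison with the same name in all 6 libraries and a mean above 1 FPKM. FPKM were divided by the library's median ratio to the geometric mean, and log2(FPKM + 1) was fitted with limma 3.58.1 in R 4.3.3 (lmFit, eBayes with trend) with strain as the only term and Benjamini-Hochberg adjustment, threshold 0.05. Differences are on that scale. The fit was tested on simulated data. Span classes, the sets of other entries under 2000 bp and the removed span trend used the span of the Cufflinks entry, as a mean over the 6 libraries. Spans and positions of single ribosomal protein genes, and those used for peaks, are from RefSeq. That table has no strand, so peaks were counted at either gene end and not at the start as planned. Tables and figures were made with Python 3.11.15, numpy 2.4.6, pandas 2.3.3 and matplotlib 3.10.9. Values by library are given for called genes (none) and for the 3 highest and 3 lowest of each subunit among entries that name 1 gene throughout. The small subunit had 6 such genes, so all of them are given. Values by library are also given for the 5 most positive and 5 most negative differences, genes with a role named in the text, and those with more than a 2-fold range in a strain. From other lists up to 4 genes were named, called ones before the highest. The members and lists were chosen with earlier results of these data known. Sequences were not used here, and 2 small subunit genes are counted but not reported singly here.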

Additional observations from a re-analysis of the deposited data

How the results depend on the processing

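The count of 0 ribosomal protein genes called in limma was the same under all 22 alternatives, and 1 to 27 had an unadjusted p under 0.05 in 4 of them (the fits without the span trend and without eworo replicate 2). Calls over all entries (128) numbered 27 with the replicate block and 60 to 153 when a library was left out. The block moved no ribosomal protein gene to a call, and replicate numbers shared across strains went with no common deviation (correlations of deviations of -0.037, -0.109 and 0.050), so the numbers were not taken as pairs. The median difference of the ribosomal protein genes was 0.25. It moved beyond the spread of library medians (0.22) under 1 alternative, scaling to the same summed FPKM (0.017), a sum that includes these genes. It was 0.17 to 0.39 when a library was left out, or 0.12 to 0.36 with every gene taking its entry. These fits of all genes with a library left out or the span trend removed were chosen after seeing the data. The share of summed FPKM, 29.1% over 6 libraries, was 20.2% in entries that name 1 gene alone and 28.3% to 30.2% when a library was left out. Peaks of at least 3-fold enrichment were at 28 genes in eworo and 15 in OreR.

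Of 340 values for the 28 genes chosen by the rule for naming under the alternatives, 17 in 9 genes had the other sign, none of them called. With scaling to the same sum these were *RpS30* (-0.083), *RpLP2* (-0.014), *RpL6* (-0.12), *RpL10* (-0.11), *RpL40* (-0.10), *RpL38* (-0.085) and *RpL9* (-0.061). With the span trend removed they were *RpS30* (-0.062), *RpLP2* (-0.0053), *RpL6* (-0.047), *RpL40* (-0.084) and *RpL38* (-0.050). With a library left out *RpL39* ran from -0.32 to 0.22, *RpL6* from -0.027 to 0.23 and *RpS3*, with every gene taking its entry, from -0.16 to 0.075. The cause of these changes was not tested. Each strain had 3 pools, the median standard error of the 30 entries was 0.17, and the FPKM give no read depth.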
